A study of Homo sapiens with 11 samples.

Results

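The genes described here encode the 3 TGF-beta ligands (TGFB1, TGFB2 and TGFB3), their receptors TGFBR1 and TGFBR2, the SMAD proteins SMAD2, SMAD3, SMAD4 and SMAD7, and the SMAD corepressor SKIL. They were taken by name, as a list of 10 genes, from the 25590 genes in the count tables, and all 10 were found there. They were followed in 11 subcutaneous tumours grown from PC-3, a human prostate carcinoma cell line, in male athymic nude mice (Crl:NU-Foxn1nu) that were 8 weeks old. The 5 control tumours came from mice given PBS. The 6 treated tumours came from mice given A2M*, the transformed form of alpha2-macroglobulin, intraperitoneally at 5.6 mg per 20 g body weight from day 7 of an experiment that ended at day 31. Human-specific reads were counted per gene, with 1 library per tumour. All tumours derive from a single cell line, and the hosts lack a thymus and hence mature T cells. The labels write the treatment as A2M and number the tumours, given here as T123 to T127 for PBS and T128 to T132 and T112 for A2M*.

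TGF-beta ligands are secreted in a latent complex and, once released, bind the type II receptor TGFBR2, which recruits and phosphorylates the type I receptor TGFBR1. TGFBR1 in turn phosphorylates SMAD2 and SMAD3, which join SMAD4 and regulate genes in the nucleus, while SMAD7 blocks the receptor and SKIL represses SMAD target genes. In normal epithelium the pathway is known to restrain proliferation, and in carcinoma also for its part in invasion and in epithelial-mesenchymal transition. Alpha2-macroglobulin is a proteinase inhibitor of plasma that also carries TGF-beta. The study examined A2M* for its effect on TGF-beta1 signalling through SMAD phosphorylation in cultured lung cancer cells, not in PC-3. The comparison given here is of RNA in tumours and measures neither protein nor phosphorylation.

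None of the 10 genes passed an adjusted p of 0.01, nor of 0.05, between the treatments (edgeR quasi-likelihood test, Benjamini-Hochberg adjustment over the 16630 genes tested). The same held for all genes tested, 0% of which passed, with a smallest adjusted p of 0.599 (edgeR). At an unadjusted p under 0.05 there were 2 of the 10 genes, the receptor TGFBR1 with a lower mean and the ligand TGFB3 with a higher mean in A2M* tumours, against 7.08% of all genes tested. In TMM-normalised counts the groups overlapped for each of the 10 genes, and 0.71% of all genes tested did not overlap. In levels per length, without TMM factors, the groups of TGFB3 did not overlap, as given below. The fold change was above 1 for 6 genes and below 1 for 4, with a median log2 fold change of 0.03 against -0.0021 over all genes. The 95% intervals of the fold change reached from 0.680 at the lowest, for TGFBR1, to 1.29 at the highest. Each interval taken singly, none of the 10 included a 1.5-fold difference in either direction. The intervals are not adjusted for the number of genes, so this does not exclude such a difference for the 10 jointly. Since the tumours were measured in bulk, fewer cells of a type and less RNA per cell cannot be told apart in any of these values.

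Totals were between 16958533 and 35874381 counts per tumour, so that 3 counts equalled 0.0836 to 0.177 RPM (reads on a gene per 1e+06 counted reads), a limit that covers counting error only. The rarest of the 10 genes, SMAD7, had at most 264 counts per tumour, and the others had at least 427. KRT8 and KRT18, keratins of epithelial cells, reached 244.6 and 316.4 RPKM (RPM per kilobase of exon). KLK3, the prostate-specific antigen of androgen-responsive prostate cells, had 0 counts in every tumour and KLK2 at most 1. The reads were sorted as human, and host tissue was mouse. For markers of other cell types, PC-3 reads and missorted mouse reads cannot be told apart. These markers were uneven. Among those of macrophages TYROBP had 0 counts and AIF1 at most 1, while CSF1R had at least 44 and CD68, a lysosomal protein, 381 to 902. Among those of fibroblasts DCN had at most 3 counts and LUM at most 5, while COL3A1 had 224 to 1247 and COL1A1 7677 to 28262. Among those of endothelium CDH5 had at most 17 counts, and PECAM1 had 238 to 803. CPM stands for counts per 1e+06 counts, TMM-normalised, and COL1A1 had a mean of 455.6 CPM in PBS and 587.8 CPM in A2M* tumours. The summed level of the 6 fibroblast markers lay between 319.1 and 665.0 RPM in PBS tumours and between 320.1 and 921.5 RPM in A2M* tumours. For the 6 macrophage markers it was 24.8 to 33.6 and 24.7 to 33.5 RPM, and for the 4 endothelial markers 16.3 to 23.8 and 15.3 to 23.3 RPM. Each sum came mostly from a single gene, COL1A1, CD68 and PECAM1, respectively. CD68 had means of 25.1 CPM in PBS and 23.7 CPM in A2M* tumours, and PECAM1 of 17.5 and 17.4 CPM.

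On the scale of levels per length, TGFBR2 was the most abundant of the 10 transcripts, with 53.0 ± 3.49 RPKM (SD, n = 11). It was above TGFB1 in 11 of 11 tumours. TGFB1 (37.2 ± 5.00 RPKM) and TGFB2 (35.1 ± 5.77 RPKM) could not be ordered beyond their spread, since TGFB1 was the higher in only 7 of 11 tumours. Below them followed SMAD3 (26.1 ± 2.54 RPKM), SKIL (15.05 ± 1.87 RPKM) and TGFB3 (9.60 ± 0.795 RPKM), each below its upper neighbour in 11 of 11 tumours. TGFBR1 (4.42 ± 0.654 RPKM) and SMAD4 (4.35 ± 0.376 RPKM) exchanged places, TGFBR1 being the higher in 7 of 11 tumours. SMAD2 (3.89 ± 0.264 RPKM) was below SMAD4 in each tumour, and the inhibitory SMAD7 was lowest, with 1.82 ± 0.246 RPKM. The receptor pair was thus unequal at the RNA level, as were SMAD3 and SMAD2, which TGFBR1 both phosphorylates.

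**Figure D1:**
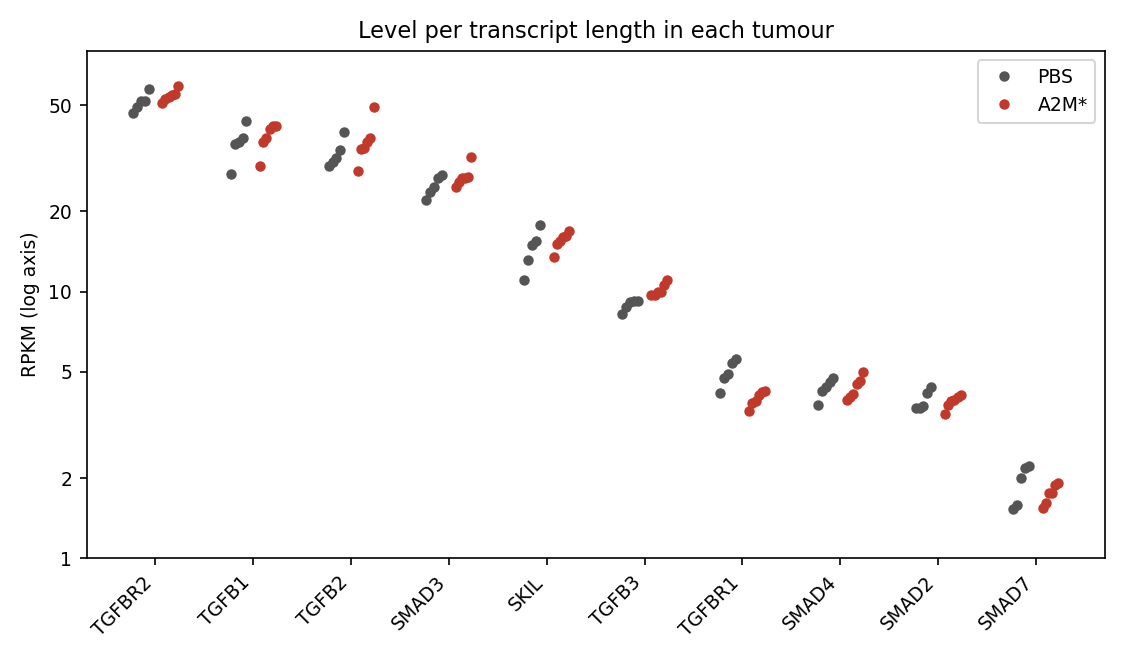
Level of each gene in RPKM (log axis) in the 5 PBS tumours (grey) and 6 A2M* tumours (red), each point a tumour, genes ordered by their mean over 11 tumours. TGFBR2 at 53.0 RPKM and SMAD7 at 1.82 RPKM are the ends of the order, and the points of TGFB1 and TGFB2 and of TGFBR1 and SMAD4 overlap.

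The type I receptor TGFBR1 is encoded on chromosome 9 of GRCh37 from 101866320 to 101916474, plus strand, with no exon of another annotated gene over its own. In PBS tumours T123, T124, T125, T126 and T127 it had 26.6, 32.0, 37.4, 34.7 and 32.5 CPM. In the A2M* tumours the lowest value was 22.4, the median 25.5 and the highest 27.6 CPM. Of the 6 A2M* tumours 4 were below every PBS tumour, and the other 2 exceeded only PBS tumour T123, the lowest of its group. The means were 32.7 ± 3.996 CPM (SD, n = 5) and 25.4 ± 1.94 CPM (SD, n = 6). The log2 fold change was -0.37 (standard error, SE, 0.0889, 95% interval -0.56 to -0.17), or a ratio of 0.776. The unadjusted p was 0.00111 and the adjusted p 0.599 in edgeR's quasi-likelihood test, and 28 of all genes tested (0.168%) had a p as small. Exact permutation of the tumours between the groups (two-sided, 462 assignments) gave p = 0.00649. With any 1 tumour left out the log2 fold change stayed between -0.43 and -0.31.

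The type II receptor TGFBR2 (chromosome 3, 30648093 to 30735634, plus strand) had 241.3, 228.9, 254.1, 268.4 and 236.2 CPM in PBS tumours T123 to T127. In A2M* tumours it lay between 234.1 and 269.5 CPM, so that the groups covered nearly the same range. Its log2 fold change was 0.04 (SE 0.0609, 95% interval -0.095 to 0.17, edgeR adjusted p = 0.939).

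The ratio of the receptor pair was compared within each tumour, on counts, so that the normalisation between libraries does not enter. The log2 ratio of TGFBR1 to TGFBR2 counts in PBS tumours T123 to T127 was -3.18, -2.84, -2.76, -2.95 and -2.86. In A2M* tumours it was between -3.49 and -3.19. All 6 A2M* tumours were below all 5 PBS tumours, the nearest being A2M* tumour T112 at -3.19 and PBS tumour T123 at -3.18. The mean difference was -0.40 (fold 0.760, SD 0.161 in PBS, n = 5, and 0.107 in A2M*, n = 6). The two-sided exact permutation test gave p = 0.00216, the smallest it can give with these group sizes, and p = 0.0108 after Benjamini-Hochberg adjustment over the 5 ratios compared. With medians in place of means the difference was -0.43 and the adjusted p from the exact permutation test 0.0649. Among the ratios of each of the other 16629 genes tested to TGFBR2, the groups did not overlap in 0.529%. The adjustment over 5 ratios does not take all genes into account, and TGFBR1 itself did not pass the test over all genes. The ratios were chosen with earlier results of these data known, and the adjusted p does not account for that choice. This ratio rests on the same TGFBR1 counts and is no separate evidence.

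Markers of cell types were set beside TGFBR1. Over all genes tested, 7.08% had an unadjusted p under 0.05 and 50.6% had a log2 fold change below 0. Of 4 tested fibroblast markers 4 had a higher mean in A2M* tumours, and 1 of them, COL1A2, had an unadjusted p of 0.0459 (edgeR), while DCN and LUM stayed at 5 counts or fewer. Of 4 epithelial markers 4 had a lower mean, with log2 fold changes between -0.18 and -0.072 and none at an unadjusted p under 0.05. Of 3 tested endothelial markers 3 had a lower mean, VWF with an unadjusted p of 0.0247 (edgeR) at 11 to 33 counts. Of 4 tested macrophage markers 2 had a higher mean, and of 3 tested markers of luminal prostate and androgen response 3, with none under 0.05. The part of these markers in the TGFBR1 values was not tested. The depth of the library also differed, with the 2 A2M* tumours that exceeded a PBS tumour in TGFBR1 (T128 and T112) being the deepest of their group at 33223999 and 32131776 counts. PBS tumour T123, with the lowest TGFBR1 of its group, had 29852734 counts. PBS tumour T126, the shallowest of its group at 26042224 counts, had 34.7 CPM of TGFBR1. A2M* tumours T130 and T131, of similar depth at 25672567 and 26930311 counts, had 25.8 and 22.4 CPM. The part of depth was not tested.

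To show the sequence next to the start of the receptor genes TGFBR1 and TGFBR2, the 250 bases before the start of the principal transcript (MANE Select) are given for both, from RefSeq's promoter table and placed on GRCh37 by exact match. All 10 genes are in that table. It lists 8 promoters for TGFBR1 and 2 for TGFBR2, and those of other starts are not shown here. Capitals mark the GC-box core GGGCGG and the CCAAT box (ATTGG on the other strand), which do not overlap. TGFBR1 is at chr9:101867145-101867394 and TGFBR2 at chr3:30647843-30648092, both on the plus strand, 5′ to 3′.
TGFBR1: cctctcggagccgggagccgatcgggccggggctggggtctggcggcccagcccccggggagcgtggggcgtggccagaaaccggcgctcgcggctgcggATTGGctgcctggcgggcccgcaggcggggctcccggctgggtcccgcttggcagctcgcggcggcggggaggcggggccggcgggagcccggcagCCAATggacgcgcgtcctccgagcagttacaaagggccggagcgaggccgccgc
TGFBR2: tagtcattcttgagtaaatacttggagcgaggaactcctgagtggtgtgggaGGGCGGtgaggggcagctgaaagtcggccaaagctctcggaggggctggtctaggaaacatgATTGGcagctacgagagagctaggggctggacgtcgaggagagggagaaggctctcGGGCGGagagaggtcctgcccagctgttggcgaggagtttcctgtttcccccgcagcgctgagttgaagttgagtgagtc
TGFBR1 holds no GGGCGG on either strand in this window, and TGFBR2 holds 2 on the printed strand. CCAAT occurs in TGFBR1 on both strands, 1 time each, and in TGFBR2 1 time on the other strand. Of the 35116 promoters in the table, 42.6% hold GGGCGG and 32.0% hold CCAAT on either strand. The GC content was 79.6% for TGFBR1 and 58.4% for TGFBR2, against a median of 58.0% over all promoters. These matches describe the letters only, and no binding was measured.

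**Figure D2:**
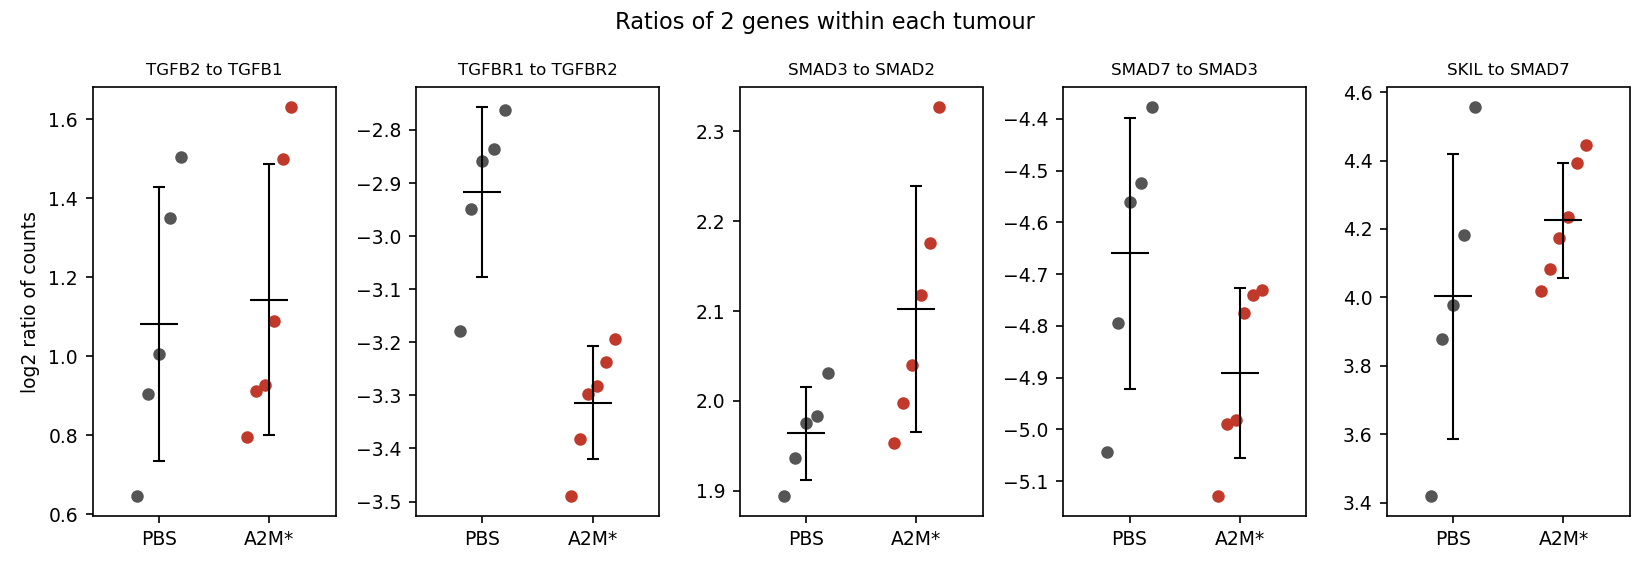
Log2 ratio of the counts of 2 genes within each tumour for 5 pairs, PBS (grey, n = 5) and A2M* (red, n = 6), with mean and SD as bar and whiskers. Each panel has its own vertical axis. Only for TGFBR1 to TGFBR2 do the groups not overlap, with PBS at -3.18 or above and A2M* at -3.19 or below.

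Among the ligands, TGFB3 (chromosome 14, 76424440 to 76449354, minus strand) was the gene with the other unadjusted p under 0.05. Its CPM in PBS tumours T123 to T127 was 31.4, 33.4, 33.0, 28.4 and 30.8. In A2M* tumours the lowest, median and highest values were 32.6, 34.1 and 37.2 CPM, and 5 of 6 were above every PBS tumour. In RPKM, which carries no TMM factors, all 6 were above every PBS tumour. The nearest were A2M* tumour T130 at 9.68 RPKM and PBS tumour T124 at 9.26 RPKM. The share of all genes apart in RPKM is not given here. The log2 fold change was 0.14 (SE 0.0654, 95% interval 0.00041 to 0.28, edgeR p = 0.0494, adjusted p = 0.701), and the exact permutation test gave p = 0.0195. In 4 of 11 alternatives that kept all tumours and in 7 of 11 that left out 1 tumour, TGFB3 was no longer under 0.05, with edgeR or other p up to 0.0786 and 0.119, respectively. TGFBR1 was under 0.05 in each of them. The p of TGFB3 was smaller without TMM factors, at 0.0120 in edgeR with library size only and 0.0118 in limma on log2(RPKM + 0.1). TGFB3 shares exon positions with TGFB3-AS1 on the other strand, and its reads cannot be told apart from those of the antisense gene in libraries without strand.

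TGFB1 (chromosome 19, 41807492 to 41859827, minus strand), the isoform best known in carcinoma, had 92.7, 101.9, 95.9, 71.0 and 114.8 CPM in PBS tumours T123 to T127. The A2M* tumours lay between 74.6 and 108.9 CPM, inside the range of the PBS tumours. Its log2 fold change of 0.03 (SE 0.118, edgeR adjusted p = 0.978) changed sign when single tumours were left out, between -0.062 and 0.10. TGFB2 (chromosome 1, 218518678 to 218617961, plus strand) had 186.1, 190.6, 244.4, 201.7 and 179.6 CPM in PBS tumours and between 164.8 and 290.3 CPM in A2M* tumours, with the highest value in A2M* tumour T128. The groups overlapped throughout, and the log2 fold change was 0.11 (SE 0.123, edgeR adjusted p = 0.909), or 0.0032 without A2M* tumour T128. TGFB1 overlaps HNRNPUL1 and TGFB2 overlaps TGFB2-AS1 on the other strand, and TGFB2-OT1 lies on the strand of TGFB2.

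Of the summed ligand level per length, TGFB1 made up 45.5% ± 5.01, TGFB2 42.8% ± 5.02 and TGFB3 11.8% ± 0.785 (SD, n = 11). TGFB3 had 11.4% ± 0.608 in PBS and 12.0% ± 0.870 in A2M* tumours, a difference smaller than the SD of the A2M* group. The log2 ratio of TGFB2 to TGFB1 counts differed by 0.061 between the groups (exact permutation test, p = 0.760).

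The receptor-activated SMADs and SMAD4 showed no difference beyond the spread between tumours. SMAD3 (chromosome 15, 67356101 to 67487511, plus strand) had 144.8, 163.0, 183.6, 179.5 and 166.8 CPM in PBS tumours T123 to T127. In A2M* tumours the lowest, median and highest values were 162.0, 172.7 and 212.9 CPM. The log2 fold change was 0.08 (SE 0.0824, edgeR adjusted p = 0.898), and 0.022 without A2M* tumour T112. SMAD2 (chromosome 18, 45335328 to 45457517, minus strand) ranged from 39.0 to 46.9 CPM in PBS and from 36.7 to 43.1 CPM in A2M* tumours, with a log2 fold change of -0.06 (SE 0.0702). SMAD4 (chromosome 18, 48554898 to 48611415, plus strand), the partner of both, ranged from 32.5 to 41.6 CPM in PBS and from 34.2 to 42.7 CPM in A2M* tumours. Its log2 fold change was -0.03 (SE 0.0830) and turned to 0.012 without TMM factors. The edgeR adjusted p was 0.909 for SMAD2 and 0.964 for SMAD4. The ratio of SMAD3 to SMAD2 counts was higher in A2M* tumours by 0.14 on the log2 scale (exact permutation test, p = 0.0541, adjusted over the 5 ratios 0.135). SMAD3 and SMAD4 overlap exons of annotated genes without a symbol, on the other strand for SMAD3 and on the same strand for SMAD4.

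SMAD7 (chromosome 18, 46446223 to 46477335, minus strand), the inhibitory SMAD that is itself a target of the pathway, had 5.21, 7.83, 7.97, 5.42 and 7.05 CPM in PBS tumours T123 to T127. In A2M* tumours the lowest, median and highest values were 5.20, 6.05 and 6.61 CPM. In PBS, 3 tumours were above the A2M* range and 2 within it, and the log2 fold change was -0.18 (SE 0.129, edgeR adjusted p = 0.841). SKIL (chromosome 3, 170075130 to 170114623, plus strand), known as SnoN, had 94.8, 83.9, 117.4, 128.01 and 111.3 CPM in PBS tumours and between 98.6 and 119.1 CPM in A2M* tumours. The A2M* tumours lay within the PBS range, and the log2 fold change was 0.06 (SE 0.0973, edgeR adjusted p = 0.941). The ratio of SKIL to SMAD7 counts differed by 0.22 on the log2 scale (exact permutation test, p = 0.279) and that of SMAD7 to SMAD3 by -0.23 (p = 0.110). The former was 0.076 without PBS tumour T124 and 0.36 without T126, and the latter -0.33 without T126, where the exact permutation test gave p = 0.0381 and an adjusted p of 0.0635 for both.

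**Figure D3:**
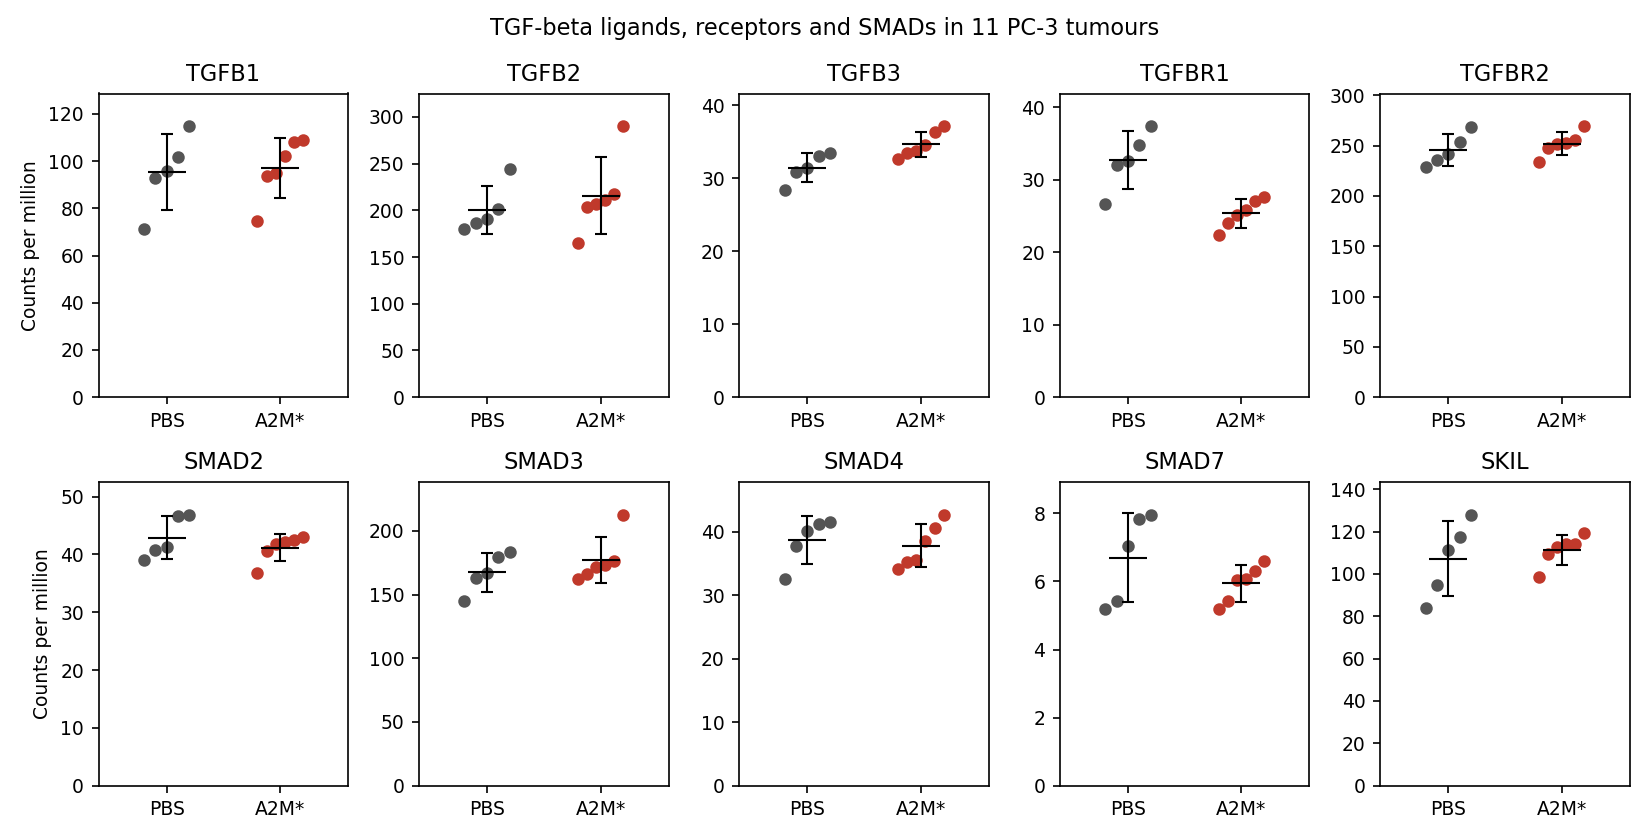
CPM (TMM-normalised) of each of the 10 genes in PBS (grey, n = 5) and A2M* tumours (red, n = 6), each point a tumour, with mean and SD as bar and whiskers. Vertical axes start at 0 and differ between panels. TGFBR1 lies at 26.6 to 37.4 CPM in PBS and at 22.4 to 27.6 CPM in A2M* tumours, and the groups overlap in every panel.

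**Figure D4:**
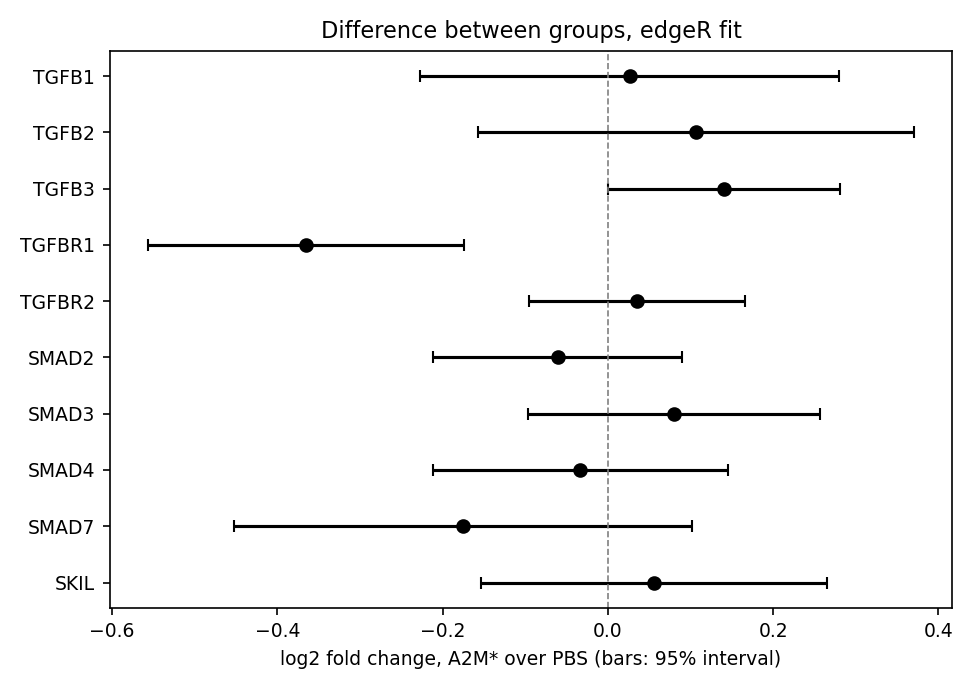
Log2 fold change of A2M* over PBS for the 10 genes with its 95% interval from the edgeR fit, not adjusted for the number of genes. The interval of TGFBR1 lies below 0 (-0.56 to -0.17), that of TGFB3 begins at 0.00041, and those of the other genes include 0.

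It was then asked whether tumours with more ligand or receptor RNA also had more SMAD7 or SKIL RNA, the feedback genes. Over 11 tumours, with the group mean taken from each log2 CPM, 0 of 11 relations passed an adjusted p under 0.05 in a permutation test of the tumours inside each group. The largest coefficients were those of TGFB3 with SMAD7 (Pearson's r = 0.64, permutation p = 0.0638, adjusted 0.351, Spearman's rho = 0.47, p = 0.172) and TGFB1 with SMAD7 (r = 0.62, permutation p = 0.0625, adjusted 0.351, rho = 0.65, p = 0.0510). Without the 2 tumours farthest from the median of the ligand, r was 0.48 and 0.44. TGFBR2 with SKIL gave r = 0.60 (permutation p = 0.105, adjusted 0.385, rho = 0.49, p = 0.179) and 0.56 without 2 tumours. SMAD7 and SKIL had r = -0.19 (permutation p = 0.680). With the group means kept, r of TGFB3 with SMAD7 was 0.18, and without TMM factors 0.40. With 11 tumours these coefficients describe the spread within groups only.

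The gene whose log2 CPM most followed each of the 10, after removal of the group means, was found among 11121 genes whose mean log2 CPM reached 3 (11122 for SMAD7, itself below that level). These are descriptions over 11 tumours of a single cell line with unequal library depth, each chosen as the highest of many. TTYH3 went with TGFB1 (r = 0.967), FOXC1 with TGFB2 (0.910), RPN1 with TGFB3 (0.848), LINC00674 with TGFBR1 (0.944) and YOD1 with TGFBR2 (0.971). PAFAH1B2 went with SMAD2 (r = 0.976), IRAK2 with SMAD3 (0.917), WDR37 with SMAD4 (0.941), RAB29 with SMAD7 (0.939) and TMEM181 with SKIL (0.925). No gene of the 10 had another of the 10 as its nearest.

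The other genes of the pathway were followed on 8 lists with 85 genes, 80 of which could be tested. Of these, 0 passed an adjusted p under 0.01, and 5 or 6.25% had an unadjusted p under 0.05, against 7.08% of all genes. Their median log2 fold change was -0.026, with 33 genes higher and 47 lower in A2M* tumours. Of all genes tested, 50.6% had a log2 fold change below 0. The groups did not overlap for 2 genes or 2.5%, against 0.71% of all genes. LRRC32, NRROS, AMHR2, BMP6 and LEFTY2 had too few counts to be tested.

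Among 4 co-receptors, 1 had an unadjusted p under 0.05, against 7.08% of all genes tested. TGFBR3, the betaglycan that presents ligand to TGFBR2, had 2.02, 1.90, 1.599, 2.33 and 1.99 CPM in PBS tumours T123 to T127. In A2M* tumours its lowest, median and highest values were 2.38, 2.66 and 3.95 CPM, all above those of PBS, from 43 to 104 counts per tumour. The log2 fold change was 0.52 (SE 0.151, edgeR p = 0.00412, adjusted p = 0.599, exact permutation p = 0.00216). CD109 (12.4 RPKM) and BAMBI (10.2 RPKM), which dampen the receptors, were the most abundant of this list.

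Among 16 intracellular regulators, 2 had an unadjusted p under 0.05, both lower in A2M* tumours, against 7.08% of all genes tested. TGIF2, a homeobox corepressor of SMADs, had 47.9, 54.0, 53.9, 48.0 and 55.4 CPM in PBS tumours T123 to T127. Its A2M* values were 41.4 at the lowest, 43.7 at the median and 47.89 CPM at the highest, just below the lowest PBS value of 47.94 CPM, so that the groups did not overlap in CPM. In RPKM, without TMM factors, they overlapped. A2M* tumour T132 had 13.5 RPKM, above PBS tumours T123 and T126 at 13.4 and 13.3 RPKM. The log2 fold change was -0.22 (SE 0.0653, edgeR p = 0.00466, adjusted p = 0.599, exact permutation p = 0.00433). PMEPA1, a target of TGF-beta that holds SMADs away from the receptor, was the second most abundant of all pathway genes at 292.7 RPKM. It had 1655.6, 1788.1, 1823.3, 1462.5 and 2018.4 CPM in PBS tumours and 1287.0 to 1714.4 CPM in A2M* tumours. Its log2 fold change was -0.21 (SE 0.0955, edgeR p = 0.0433, adjusted p = 0.699, exact permutation p = 0.0584), and the unadjusted p was not under 0.05 in 7 of 11 fits that left out 1 tumour and in 4 of 11 other alternatives. STRAP, with 77.0 RPKM, was the next in abundance on that list.

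Of 24 target genes, 1 had an unadjusted p under 0.05, against 7.08% of all genes tested. Their median log2 fold change was 0.0074, with 13 higher and 11 lower. LMCD1, a cofactor of transcription with LIM domains, had 20.1, 22.3, 31.9, 21.0 and 28.4 CPM in PBS tumours T123 to T127 and 14.5 to 23.2 CPM in A2M* tumours. Its log2 fold change was -0.42 (SE 0.150, edgeR p = 0.0145, adjusted p = 0.640, exact permutation p = 0.0390). It was -0.31 without PBS tumour T125, where the edgeR p was no longer under 0.05. CYR61, a matricellular protein, was the most abundant target gene at 216.4 RPKM. ANGPTL4, a further TGF-beta target, was left off the list of 24 since its values were known from earlier results. It had 98.9 ± 28.9 CPM (SD, n = 5) in PBS and 40.0 ± 18.9 CPM (SD, n = 6) in A2M* tumours. The groups did not overlap, which held for 0.71% of all genes tested. Its log2 fold change was -1.31 (SE 0.302, edgeR p = 0.000702, exact permutation p = 0.00433). ANGPTL4 was named with this change known. Its p-values do not account for that choice, and it is not ranked against the list. The adjusted p was 0.599 in edgeR's quasi-likelihood test and between 0.0471 (edgeR's likelihood ratio test) and 0.736 (no filter) over the 11 alternatives that kept all tumours, with 0.0895 in DESeq2, so that none passed the threshold of 0.01.

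Among 10 other ligands of the superfamily, of which 9 were tested, GDF15, a stress-induced cytokine, had 40.0, 47.0, 115.4, 53.9 and 25.1 CPM in PBS tumours T123 to T127 and 20.4 to 53.7 CPM in A2M* tumours. The log2 fold change of -0.79 (SE 0.349, edgeR p = 0.0403, adjusted p = 0.698, exact permutation p = 0.123) was -0.35 without PBS tumour T125. The unadjusted p was not under 0.05 in 6 of 11 fits that left out 1 tumour and in 3 of 11 other alternatives. INHBB, the beta B subunit of activin and inhibin, was the most abundant of them at 76.4 RPKM. The lists of 10 genes for ligand storage and activation, 10 other receptors, 4 other SMADs and 7 secreted antagonists held no gene at an unadjusted p under 0.05 in edgeR. Their median log2 fold changes were -0.044, -0.034, 0.062 and -0.0040. THBS1, which can activate latent TGF-beta, was the most abundant of all pathway genes at 397.4 RPKM, followed on its list by LTBP3 (36.1 RPKM), which binds the latent complex. ACVR1 (11.8 RPKM) and BMPR2 (8.44 RPKM) led the other receptors, SMAD1 (19.1 RPKM) and SMAD5 (8.502 RPKM) the other SMADs, and FSTL3 (19.6 RPKM) and NOG (17.6 RPKM) the antagonists.

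**Figure D5:**
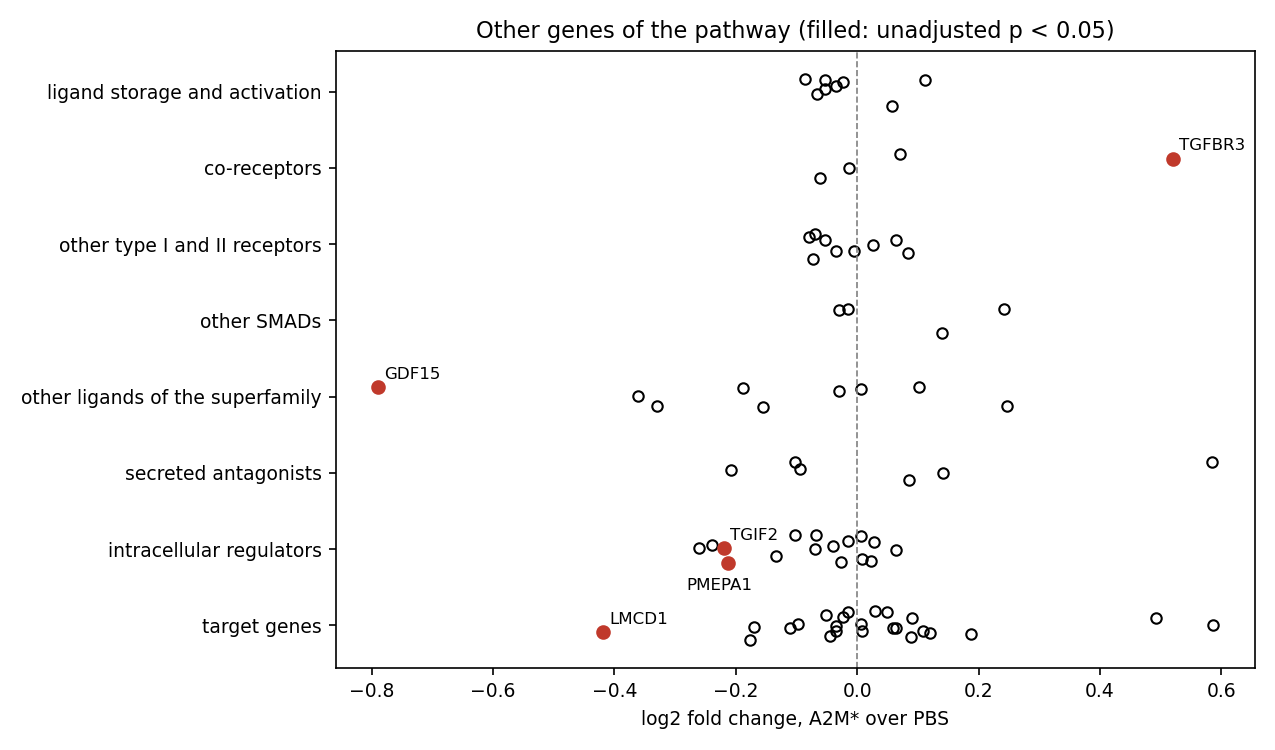
Log2 fold change of A2M* over PBS for the 80 tested genes of 8 pathway lists, each point a gene, with genes at an unadjusted p under 0.05 in the edgeR fit filled and named. The 5 named genes are 1 higher (TGFBR3) and 4 lower (TGIF2, PMEPA1, LMCD1, GDF15), and none had an adjusted p under 0.01.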

How the data were processed

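RNA of 11 PC-3 tumours was measured by RNA sequencing. Per the paper's methods, the authors used an Illumina TruSeq v2 kit, sorted reads by species, mapped human-specific reads to hg19 (GRCh37) and counted them on RefSeq genes of 2014; the submitters' processing notes name bcl2fastq 1.8.4, TopHat2 and featureCounts. The kit does not mark strand. The authors deposited raw counts per gene. The deposited RPM values are counts per 1e+06 counted reads, with a largest difference of 4.99e-07 from that quotient, and the deposited RPKM values divide RPM by exon length. Mouse reads were not analysed here.

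Counts were filtered with filterByExpr, scaled with TMM (factors 0.958 to 1.03) and compared in edgeR 4.0.16 (R 4.3.3) by its quasi-likelihood test. The threshold was an adjusted p of 0.01 over all genes. The fit was tested on simulated data. CPM uses a prior count of 2 on the log scale. Ratios, with 0.5 added to each count, were compared by exact permutation of the tumours, with a threshold of 0.05, and relations by 100000 permutations. Totals were 16958533 to 35874381 counts. P-values measure the spread between tumours. Positions are from GENCODE on GRCh37. The 10 genes, the lists and the ratios were chosen with earlier results of these data known. The rule for named genes took the 10, those of each list with an unadjusted p under 0.05 or the 2 highest mean RPKM, the most alike gene of each of the 10, cell type markers, and ANGPTL4. The values of 1 target gene that this rule took are not reported here. Alternatives were other scalings (RLE, upper quartile, library size only), filters (none, or at least 10 counts in every tumour), DESeq2 1.42.0, the likelihood ratio and exact tests of edgeR, limma-voom (limma 3.58.1), 1 surrogate variable (sva 3.50.0), limma on log2(RPKM + 0.1), an adjusted p under 0.05, and each tumour left out. Figures were drawn with matplotlib 3.10.9.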

Additional observations from a re-analysis of the deposited data

Results flagged for a closer look

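In the A2M* group, tumour T112 had 212.9 CPM of SMAD3, while the other 5 lay between 162.0 and 176.4 CPM, so that it stood apart from the rest of its group. It was the only such value among 32 groups of values searched, where chance gives 1.6.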

How the results depend on the processing

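No paired analysis was possible because the groups share no tumour numbers. For the 10 genes and for the pathway lists, the count past an adjusted p under 0.01 was 0 in each alternative and with each tumour left out. Over all genes it was 1 with DESeq2, the edgeR likelihood ratio test and the edgeR exact test, and 0 otherwise; at an adjusted p under 0.05 these gave 23, 6 and 6 genes, none of them among the 10. The split of genes at an unadjusted p under 0.05, 591 higher and 587 lower, became 1022 and 308 with library size only, 717 and 473 with upper quartile factors and 965 and 307 with limma on log2(RPKM + 0.1). The count of ratios past an adjusted p under 0.05 was 0 with medians in place of means (TGFBR1 to TGFBR2 at -0.43) and 1 to 2 with each tumour left out, 2 without A2M* tumour T128, where SMAD3 to SMAD2 also passed. TGFBR1 kept its direction throughout, with adjusted p from 0.0744 (DESeq2) to 0.736 with all tumours. SMAD4 changed sign to 0.012 with library size only and with limma on log2(RPKM + 0.1), and TGFBR1 with SKIL to r = -0.0042 with group means kept. With each tumour left out, the log2 fold change of TGFB1 ran from -0.062 to 0.10 and of SKIL from -0.020 to 0.13. The log2 ratio of TGFB2 to TGFB1 ran from -0.048 to 0.17, r of TGFBR1 with SMAD7 from -0.0031 to 0.63, of TGFBR2 with SMAD7 from -0.50 to 0.050 and of SMAD7 with SKIL from -0.50 to 0.18. For these changes the cause was not tested. The coefficients of the most alike genes lay between 0.72 and 0.99 without TMM factors and with each tumour left out, alternatives chosen after seeing the data.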
